A study of Mus musculus with 6 samples.

Results

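The muscle side of the neuromuscular junction was followed through 10 genes: the 5 subunits of the muscle nicotinic acetylcholine receptor (Chrna1, Chrnb1, Chrnd, Chrne and Chrng) and 5 genes that assemble it into the synapse (Agrn, Lrp4, Musk, Dok7 and Rapsn). They were chosen by symbol for their known role, and all 10 were found among the 24411 genes of the count table. The libraries held RNA of a hindlimb muscle of mainly fast-twitch fibres, extensor digitorum longus (EDL), from 3 mAktDKO mice and 3 control floxed mice, all 50 weeks old and of the C57BL/6J strain. The mAktDKO mice carried Mlc1f-Cre with floxed alleles of both Akt1 and Akt2, and the control mice carried the same floxed alleles without the recombinase. Cre was knocked in behind the fast myosin light chain promoter, which the study describes as active mainly in fast-twitch muscle and little in satellite cells. How far other cells in the same piece of muscle were targeted was not tested. Each numbered sample is called 1 mouse here. Nothing in the labels says that the samples came from separate animals, so p-values measure only the spread between these samples, which may be technical.

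At the junction, acetylcholine from the motor nerve opens a pentameric receptor channel in the fibre membrane. The fetal receptor holds the gamma subunit, which is replaced by epsilon in adult muscle, while the alpha, beta and delta subunits are common to both forms. Agrin binds LRP4, which activates the receptor tyrosine kinase MuSK. The adaptor DOK7 sustains MuSK activity from inside the cell, and rapsyn anchors the receptors in dense clusters under the nerve terminal. Transcription of most of these genes is concentrated in the few nuclei under the synapse, and transcription along the rest of the fibre is classically raised after denervation.

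The question was whether these synaptic genes differed between the 2 groups. Total estimated counts were between 13738795 and 15445523 per mouse, and 3 counts, taken as the floor for counting error, were 0.194 to 0.218 CPM (counts per 1e6 counts). All CPM values below are scaled between mice by TMM. Akt2 was at 49.1 to 52.7 CPM in the mAktDKO mice and 133 to 172 CPM in the control mice, and was called lower (edgeR's quasi-likelihood test, adjusted p = 0.000923). Akt1 was at 51.3 to 58.8 CPM against 65.5 to 66.5 CPM, a log2 fold change of -0.25, and was not called (edgeR adjusted p = 0.115). The study reported lower Akt protein in skeletal muscle of younger mAktDKO mice. The 15 fast fibre markers, which define the labelled muscle, were all abundant enough to be tested and summed to 148048 to 164671 CPM in the mAktDKO mice and 173596 to 184349 CPM in the control mice. Control mice are named below by the numbers heading their columns (2 to 4), since the labels number the control samples 1 to 3. Control mouse 2 stood apart from the other controls, as it had 8280 CPM over the 9 fibro-adipogenic markers against 16632 and 19380 CPM. Most of that sum was Col1a1, at 5895 CPM against 12338 and 14925 CPM. Gsn was highest in control mouse 2 (918 against 792 and 894 CPM), and all the other fibro-adipogenic markers were lowest in it.

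The promoters of 4 receptor subunits are shown first, because Chrna1 and Chrnb1 were the pair of subunits whose levels were separated between the groups, while Chrng and Chrne are the fetal and the adult alternative. The windows are from RefSeq on GRCm38 (mm10), run from 250 bases before to 50 bases after the annotated start, and are written 5′ to 3′ on the strand of the gene. Capitals mark E-boxes (CANNTG, the site read by MyoD and myogenin) and the N-box (CCGGAA on either strand, the site read by Ets factors in synaptic nuclei). The Chrna1 window is chr2:73580289-73580588 on the minus strand, the Chrnb1 window chr11:69795888-69796187 on the minus strand, the Chrng window chr1:87205561-87205860 on the plus strand and the Chrne window chr11:70619145-70619444 on the minus strand.
Chrna1: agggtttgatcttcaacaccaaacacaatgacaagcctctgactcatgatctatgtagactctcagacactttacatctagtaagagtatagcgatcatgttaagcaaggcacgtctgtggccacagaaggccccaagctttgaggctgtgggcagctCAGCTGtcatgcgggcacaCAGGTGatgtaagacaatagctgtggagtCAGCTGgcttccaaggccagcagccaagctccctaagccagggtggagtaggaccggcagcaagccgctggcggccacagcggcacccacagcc
Chrnb1: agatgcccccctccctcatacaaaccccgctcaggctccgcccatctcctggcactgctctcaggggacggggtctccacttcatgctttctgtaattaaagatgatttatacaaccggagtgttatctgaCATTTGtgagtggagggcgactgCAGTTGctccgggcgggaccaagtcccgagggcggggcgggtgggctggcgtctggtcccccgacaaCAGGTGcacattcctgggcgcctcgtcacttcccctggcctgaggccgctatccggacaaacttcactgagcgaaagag
Chrng: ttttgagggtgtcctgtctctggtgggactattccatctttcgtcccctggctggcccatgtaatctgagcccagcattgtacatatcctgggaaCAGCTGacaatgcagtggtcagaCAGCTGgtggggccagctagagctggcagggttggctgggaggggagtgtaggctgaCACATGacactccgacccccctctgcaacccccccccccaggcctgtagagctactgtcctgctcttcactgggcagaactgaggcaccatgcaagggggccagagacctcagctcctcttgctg
Chrne: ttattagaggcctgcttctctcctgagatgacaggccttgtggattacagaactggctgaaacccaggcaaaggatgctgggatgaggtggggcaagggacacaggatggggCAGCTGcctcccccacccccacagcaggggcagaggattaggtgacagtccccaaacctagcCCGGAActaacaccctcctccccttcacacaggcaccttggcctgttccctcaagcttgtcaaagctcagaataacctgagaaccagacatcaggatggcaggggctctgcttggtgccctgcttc

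Chrna1 held 3 E-boxes, whose first bases lay 92, 73 and 44 bases before the start, and Chrnb1 also held 3, at 119, 96 and 29 bases. Chrng had 3 as well, and Chrne had 1 E-box and the only N-box, 76 bases before its start. Musk, whose window is not printed, likewise had 3 E-boxes, so that 4 of the 9 windows of the 7 genes with an entry (Chrna1, Chrnb1, Chrne, Chrng, Musk, Dok7 and Agrn) had at least 3. Chrnd, Lrp4 and Rapsn had no entry. The RefSeq start of Chrng lies inside the gene as GENCODE draws it. Of all 32851 windows of this length, 17.6% held at least 3 E-boxes and 14.9% held the N-box. Whether these motifs bear on any level below was not tested.

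**Figure D1:**
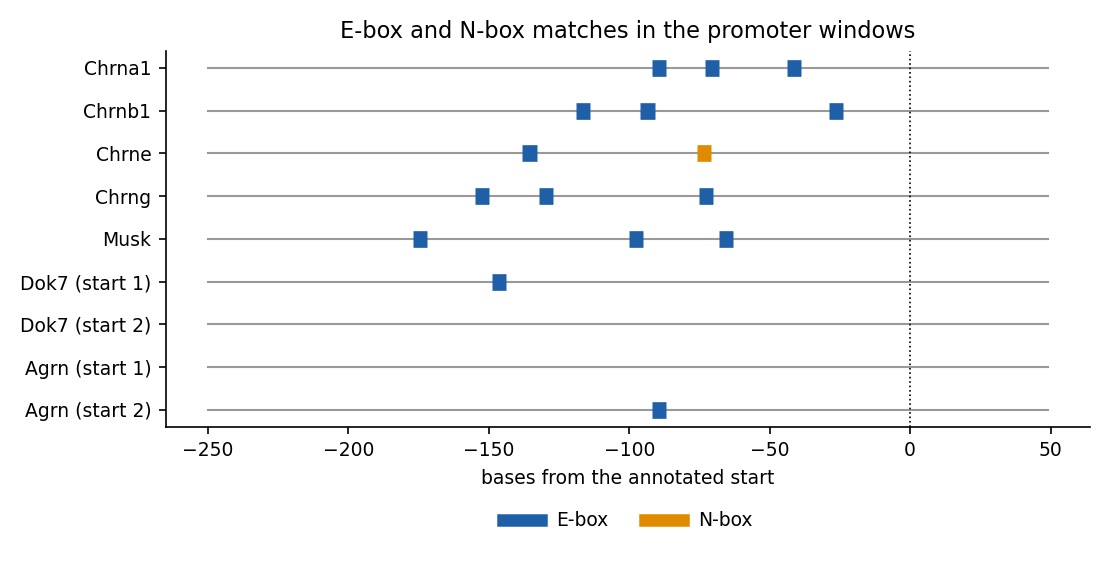
Positions of E-boxes (blue) and the N-box (orange) in the 300-base RefSeq windows of the genes with an entry, plotted as bases from the annotated start (dotted line); Dok7 and Agrn have 2 annotated starts each. E-boxes number 3 in Chrna1, Chrnb1, Chrng and Musk, and the N-box is seen in Chrne.

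None of the 10 genes passed the adjusted p threshold of 0.01 in edgeR's quasi-likelihood test, against 3 of the 12892 genes tested (0.0233%). None passed 0.05 either, against 1.18% of all genes. At an unadjusted p under 0.05, 2 were higher (Chrna1 and Chrnb1, against 11.4% of all genes) and 1 lower (Dok7, against 13.1%). In the same 3 genes the mAktDKO mice did not overlap with the control mice, and such separation was seen in 14.6% of all genes for higher and 16.6% for lower levels. As shares of the 10 genes these are 20% and 10%, near the shares over all genes. DESeq2's Wald test gave no adjusted p for Chrng. Of the other 9 genes it called 0 at 0.01 (against 3.55% of the 9616 genes with an adjusted p) and 1, Chrnb1, at 0.05 (against 8.17%). The median log2 fold change was -0.0020 over the 10 genes and 0.017 over all tested genes, with 5 genes above and 5 below 0.

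**Figure D2:**
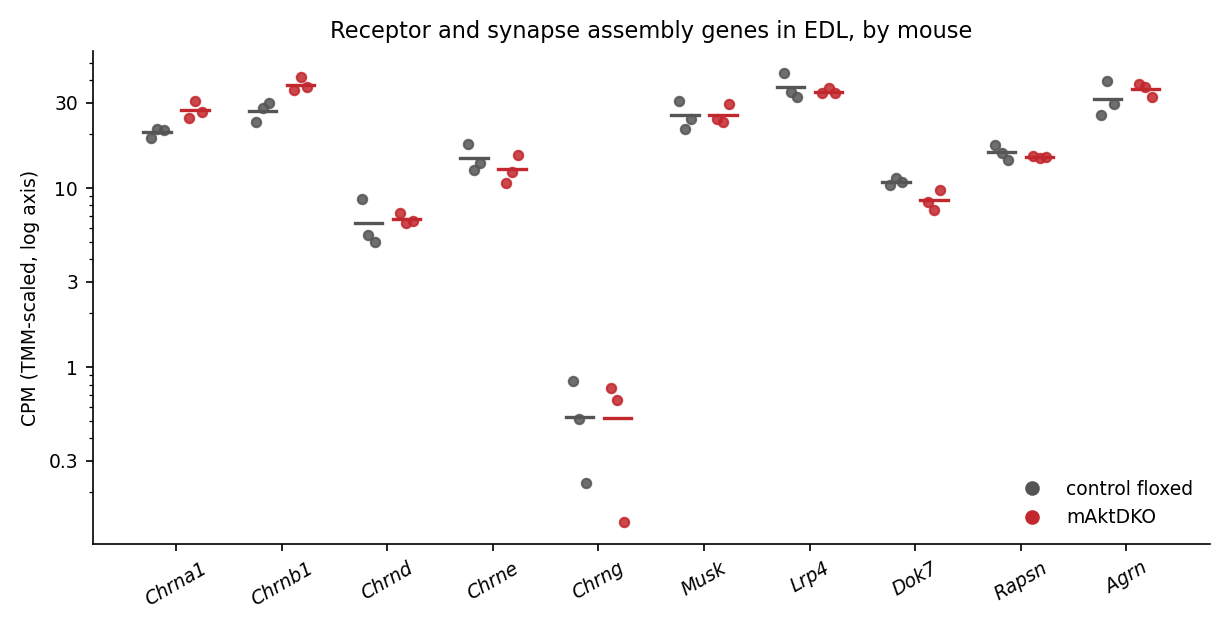
CPM of the 10 genes (TMM-scaled, log axis) in each control floxed mouse (grey) and each mAktDKO mouse (red), with horizontal bars at the mean of 3 mice. The groups are separated for Chrna1, Chrnb1 and Dok7 and overlap for the other 7 genes.

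Chrna1 encodes the alpha subunit, present as a pair in each receptor and forming the acetylcholine binding sites with its neighbours. The gene lies on chromosome 2 of mm10 from 73563215 to 73580338, on the minus strand. Its level was 24.6, 30.5 and 26.7 CPM in mAktDKO mice 1 to 3, and 18.9, 21.4 and 21.1 CPM in control mice 2 to 4. Every mAktDKO mouse was above every control mouse. The means were 27.3 ± 2.99 and 20.5 ± 1.33 CPM (SD, n = 3 each), a log2 fold change of 0.42 (standard error, SE, 0.11, edgeR adjusted p = 0.0752). As a fold this is 1.33, with a 95% interval of 1.13 to 1.58 that is not corrected for the number of genes. About 3.86% of the 37-base words in its transcript, 37 bases being the read length, also occur in transcripts of other genes, and RSEM divides such reads among them.

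Chrnb1 encodes the beta subunit, common to the fetal and adult receptor, and lies on chromosome 11 from 69784036 to 69795943 on the minus strand. It was at 35.1, 41.7 and 36.8 CPM in the mAktDKO mice and at 23.5, 28.1 and 29.7 CPM in the control mice. The groups did not overlap here either, and mAktDKO mouse 2 was the highest for both subunits. The means were 37.9 ± 3.44 and 27.1 ± 3.22 CPM (SD, n = 3 each), a log2 fold change of 0.49 (SE 0.11, edgeR adjusted p = 0.0621). The fold was 1.40 with an uncorrected 95% interval of 1.17 to 1.67, and with DESeq2 the adjusted p was 0.0161. No 37-base word of its transcripts occurred in another gene. Without control mouse 2 the log2 fold changes were 0.36 for Chrna1 and 0.39 for Chrnb1.

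The remaining subunits did not follow this pattern. Chrnd, the delta subunit gene on chromosome 1 from 87190607 to 87200070, was at 7.22, 6.34 and 6.51 CPM in mAktDKO mice 1 to 3, against 8.73, 5.47 and 4.99 CPM in the controls. The mAktDKO mice lay inside the range of the control mice, which was set by control mouse 2. Its log2 fold change was 0.062 (95% interval -0.42 to 0.54, edgeR adjusted p = 0.881), and its estimate was 0.35 without control mouse 2.

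Chrne, the adult epsilon subunit gene on chromosome 11 from 70614883 to 70619216, was at 10.6, 12.3 and 15.3 CPM in the mAktDKO mice and at 17.7, 12.6 and 13.8 CPM in the control mice. Control mouse 2 was again the highest, and the groups overlapped. The log2 fold change was -0.21 (95% interval -0.59 to 0.17, edgeR adjusted p = 0.465). An opposite-strand gene lies over part of Chrne, but shares no exon base with it and was at 0 counts in all 6 mice.

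Chrng, the fetal gamma subunit gene, lies on chromosome 1 from 87204657 to 87212694, 4586 bases after the end of Chrnd. It had 12, 11 and 2 counts in the mAktDKO mice and 12, 7 and 3 counts in the control mice, so that 2 mice were at or under the floor of 3 counts. The log2 fold change was -0.0099 (95% interval -1.46 to 1.44, edgeR adjusted p = 0.994). As a fold the interval ran from 0.364 to 2.71, and a difference of Chrng within these limits was not detectable with these counts and mice.

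**Figure D3:**
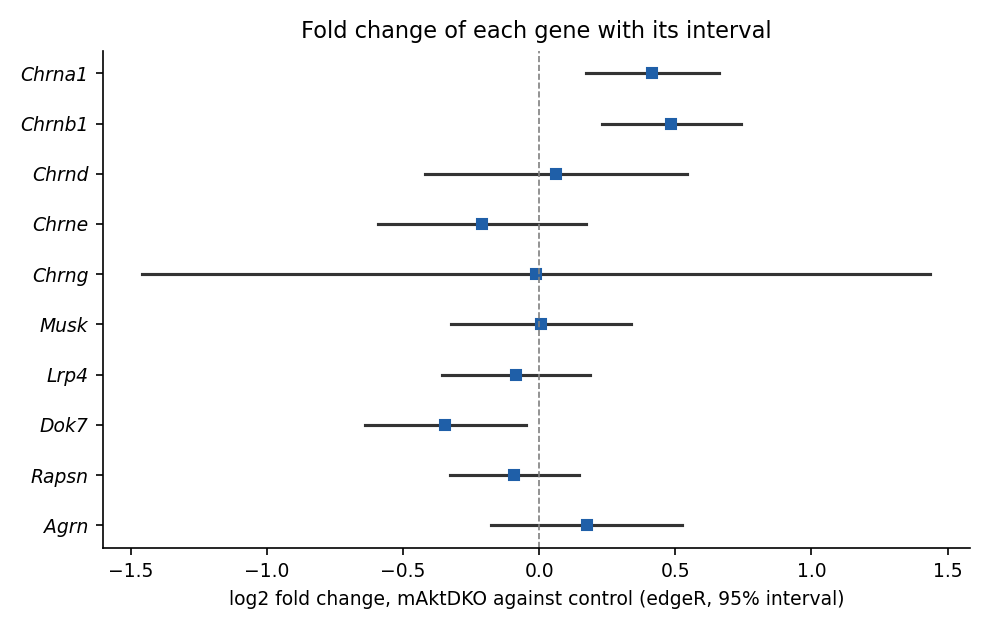
Log2 fold change of each gene, mAktDKO against control (squares), with the 95% interval of the edgeR fit (bars), not corrected for the number of genes. The intervals of Chrna1, Chrnb1 and Dok7 do not reach 0, and that of Chrng is the widest of the 10.

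Ratios between subunits within a mouse do not depend on the scaling between mice. The fetal to adult ratio, Chrng to Chrne counts, was 0.0714, 0.0537 and 0.00897 in the mAktDKO mice and 0.0474, 0.0405 and 0.0165 in the control mice. On the log2 scale, with 0.5 counts added, the difference between the groups was 0.061, against an SD of 1.47 among mAktDKO mice and 0.74 among controls (exact permutation test, two-sided p = 0.9, where 0.1 is the smallest p for 3 mice against 3). A shift between the fetal and adult subunit was thus not detectable.

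The ratios of the common subunits to Chrne were computed after their levels had been seen, and carry no test. Chrnb1 had 3.30, 3.40 and 2.41 counts for each count of Chrne in the mAktDKO mice and 1.33, 2.23 and 2.16 in the control mice. For Chrna1 the same ratio was 2.32, 2.49 and 1.74 against 1.07, 1.69 and 1.53. All mAktDKO mice had higher ratios than all control mice, with the smallest gap between mAktDKO mouse 3 and control mouse 3. The ratio of Chrna1 to Chrnb1 was 0.702 to 0.732 in the mAktDKO mice and 0.710 to 0.807 in the control mice, so those 2 subunits kept nearly the same proportion to each other.

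**Figure D4:**
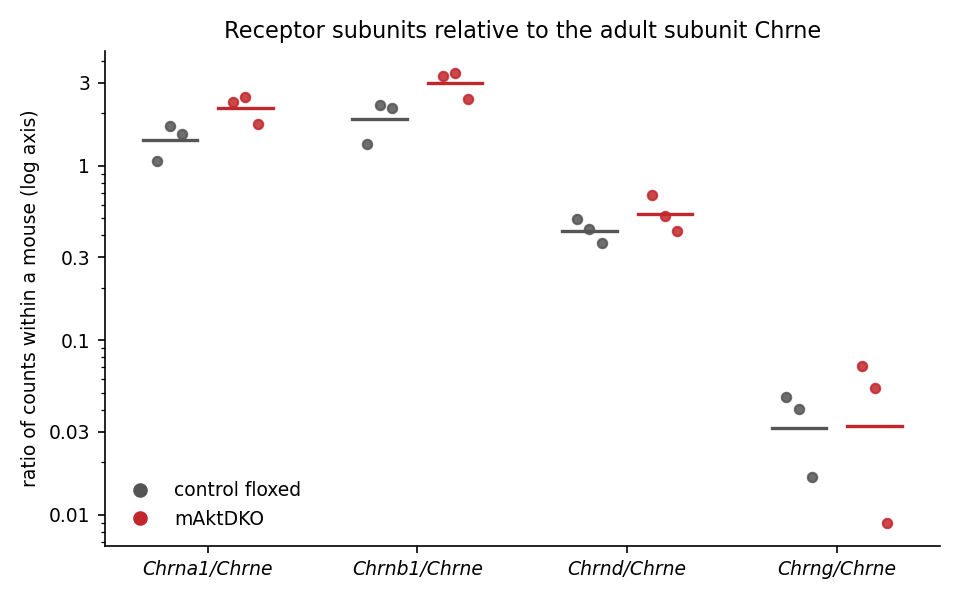
Counts of 4 receptor subunits divided by the counts of Chrne in the same mouse (log axis), for control floxed (grey) and mAktDKO (red) mice, with bars at the geometric mean of 3 mice. The groups are separated for Chrna1 and Chrnb1 and overlap for Chrnd and Chrng.

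Agrn encodes agrin, the ligand that starts clustering, and lies on chromosome 4 from 156165290 to 156197488. Its level was 38.1, 36.5 and 32.2 CPM in the mAktDKO mice, against 25.5, 39.8 and 29.4 CPM in the controls. The controls spanned the mAktDKO values, with a log2 fold change of 0.17 (95% interval -0.18 to 0.53, edgeR adjusted p = 0.506). Nerve and muscle make agrin in different splice forms, which counts per gene do not separate. The motor neuron genes Chat, Slc18a3, Slc5a7 and Mnx1 were at 0 counts in all mice. The 12 Schwann cell markers summed to 306 to 421 CPM in the mAktDKO mice and 298 to 331 CPM in the control mice, and their part in the Agrn level was not tested.

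Lrp4, the agrin receptor gene on chromosome 2 from 91457511 to 91513779, was at 33.8, 36.2 and 33.8 CPM in the mAktDKO mice and at 43.8, 34.2 and 32.1 CPM in the control mice. Apart from control mouse 2, all 5 values lay between 32.1 and 36.2 CPM. Musk, on chromosome 4 from 58285960 to 58374303, encodes the kinase that LRP4 activates. It was at 24.2, 23.4 and 29.5 CPM in the mAktDKO mice and at 30.7, 21.5 and 24.4 CPM in the control mice. The group means of Musk, 25.7 ± 3.29 and 25.6 ± 4.72 CPM (SD, n = 3 each), differed by far less than the spread between mice. The log2 fold change was -0.086 for Lrp4 (95% interval -0.36 to 0.19) and 0.0059 for Musk (95% interval -0.32 to 0.34). The edgeR adjusted p was 0.685 for Lrp4 and 0.986 for Musk.

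Dok7, the gene of the MuSK adaptor on chromosome 5 from 35056766 to 35087839, was the 1 assembly gene with separated groups. It was at 8.36, 7.54 and 9.80 CPM in the mAktDKO mice and at 10.3, 11.4 and 10.8 CPM in the control mice. All mAktDKO mice were below all control mice, and mAktDKO mouse 3 came closest to them. The log2 fold change was -0.34 (SE 0.13, 95% interval -0.64 to -0.050, edgeR adjusted p = 0.154), and the DESeq2 adjusted p was 0.262.

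Rapsn, the rapsyn gene on chromosome 2 from 91035620 to 91045729, was at 15.0, 14.7 and 14.9 CPM in the mAktDKO mice, against 17.5, 15.7 and 14.4 CPM in the controls. The mAktDKO mice were nearly equal and lay inside the control range. The log2 fold change was -0.091 (95% interval -0.33 to 0.15, edgeR adjusted p = 0.614), an interval of 0.796 to 1.11 as a fold.

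Differences between mice of 1 group ran across several of these genes. Control mouse 2 was the highest control for 6 of the 10 (Chrnd, Chrne, Chrng, Musk, Lrp4 and Rapsn) and the lowest for the other 4. MAktDKO mouse 3 was the highest of its group for Chrne, Musk and Dok7 and the lowest for Chrng and Agrn. In bulk RNA, fewer synaptic nuclei and less RNA per nucleus cannot be told apart.

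Levels between genes were compared per kilobase of merged exon of GENCODE M21. In the control mice the order was Chrnb1 at 10.7 CPM per kilobase, Rapsn at 8.80, Chrne at 8.69, Musk at 6.77, Chrna1 at 4.66, Lrp4 at 3.49, Agrn at 3.40, Dok7 at 2.54, Chrnd at 1.95 and Chrng at 0.126 CPM per kilobase. The ranges over 3 mice overlapped between neighbours from Chrnb1 down to Musk, between Lrp4 and Agrn and between Dok7 and Chrnd. In the mAktDKO mice Chrnb1 was at 15.0 ± 1.36 CPM per kilobase (SD, n = 3) and no longer overlapped with Rapsn at 8.26 ± 0.083 CPM per kilobase (SD, n = 3). Chrna1 at 6.22 CPM per kilobase overlapped with Musk at 6.80, which it did not in the control mice. Chrng stayed the lowest of the 10 in both groups. These levels depend on which exons are counted, and the annotation used for the counts is not given in the sources used here.

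Over the 6 mice the level of Chrna1 (log2 CPM) was most like that of Chrnb1 among the other 9 genes (Pearson r = 0.979, Spearman rho = 0.943), and ran opposite to Dok7 (r = -0.803, rho = -0.714). The 5 tested genes outside the gene lists with the largest Pearson r to Chrna1 were Ms4a4d (0.998), Fcho2 (0.995), Ss18 (0.995), Gulp1 (0.995) and Rps6ka3 (0.994). Of 12891 other genes, 174 had an r of at least 0.95, and 34, with Chrnb1 itself counted, had an r at or above that of Chrnb1. These are descriptions over the same 6 libraries and carry no test. They pool both groups, so the separation of the groups in Chrna1, Chrnb1 and Dok7 is part of these values.

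Around these genes, 55 further genes of the synapse were read from the same fit, of which 52 were tested. EdgeR called 0 of them at an adjusted p of 0.01 and 1 at 0.05, against 0.0233% and 1.18% of all genes. At an unadjusted p under 0.05 there were 6 higher and 7 lower, against 11.4% and 13.1% of all genes. The groups were separated for 8 higher and 8 lower, 15.4% each, against 14.6% and 16.6% of all genes. DESeq2 called 4 at 0.01, against 3.55% of the 9616 genes with an adjusted p. Of these 1 was higher (Etv5) and 3 lower, among them Lamb2 and Plec, the gene of the cytoskeletal linker plectin. The median log2 fold change of the 52 genes was 0.059.

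Lamb2, the laminin beta chain of the synaptic basal lamina, was at 225, 206 and 230 CPM in mAktDKO mice 1 to 3, against 315, 288 and 284 CPM in the controls, a log2 fold change of -0.42 (SE 0.084, edgeR adjusted p = 0.0520). All mAktDKO mice lay below all control mice. Ptpn11, the gene of the tyrosine phosphatase SHP2, was at 143 ± 0.89 against 180 ± 14.6 CPM (SD, n = 3 each, edgeR adjusted p = 0.0713).

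The list also held genes of Ets factors, the class that reads N-boxes. Etv5, an Ets factor enriched in synaptic nuclei, was at 46.0, 55.4 and 50.7 CPM in the mAktDKO mice and at 39.1, 36.5 and 34.4 CPM in the controls, a log2 fold change of 0.47 (SE 0.096, edgeR adjusted p = 0.0539). Etv1 was at 9.69, 11.9 and 11.9 CPM against 6.57, 7.58 and 8.61 CPM, a log2 fold change of 0.55 (SE 0.14, edgeR adjusted p = 0.0761). The mAktDKO mice did not overlap with the controls for Etv5 and Etv1. The groups overlapped for Gabpa, the classical N-box factor, for its partner Gabpb1 and for Etv4, with log2 fold changes of 0.064, 0.15 and 0.059 and edgeR adjusted p of 0.699, 0.521 and 0.909.

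Other well known partners of the junction differed less. Ache, which ends transmission by splitting acetylcholine, was at 62.1 ± 1.79 CPM in the mAktDKO mice and 56.4 ± 1.21 CPM in the control mice (SD, n = 3 each), with no overlap but a log2 fold change of only 0.14 (edgeR adjusted p = 0.268). Colq, the collagen tail that holds the esterase in the cleft, had 14.2 ± 1.74 against 11.4 ± 1.41 CPM (SD, n = 3 each) and an edgeR adjusted p of 0.198. Utrn, the synaptic relative of dystrophin, had a log2 fold change of 0.081 (edgeR adjusted p = 0.546), and the neuregulin receptor Erbb3 one of 0.032 (edgeR adjusted p = 0.884). None of the 11 other nicotinic subunit genes was expressed enough to be tested. They summed to 0.559 to 1.80 CPM per mouse, and Chrna3, Chrna6 and Chrnb4 were at 0 counts in all mice.

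**Figure D5:**
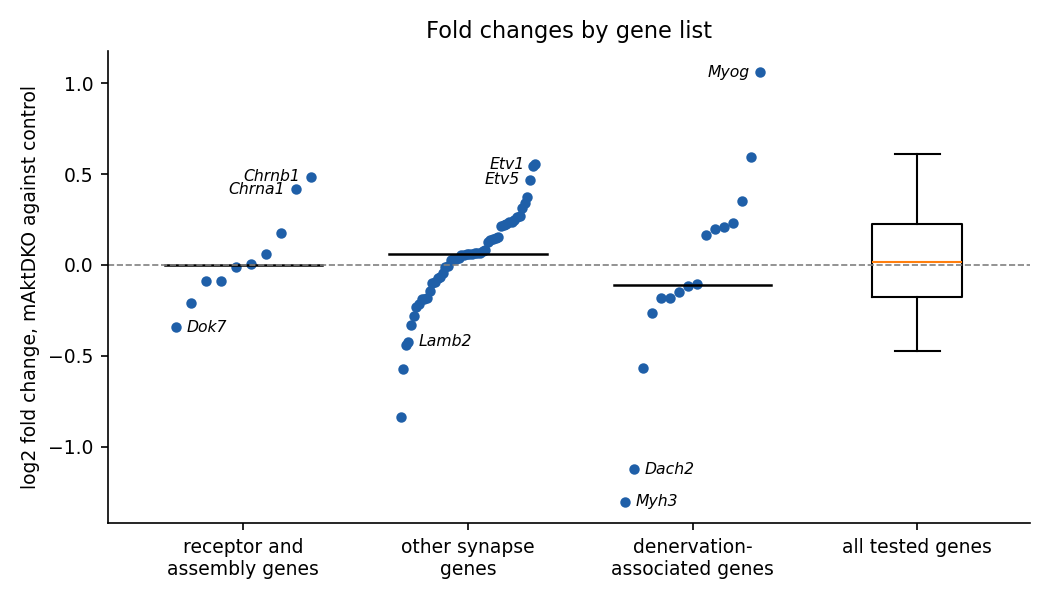
Log2 fold change, mAktDKO against control, of each tested receptor and assembly gene, other synapse gene and denervation-associated gene (points in order of value), with black bars at the list medians. The box over all tested genes spans percentiles 25 to 75 with whiskers at percentiles 5 and 95, and the 10 receptor and assembly genes fall between -0.34 and 0.49.

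Of 16 genes associated with denervation, edgeR called 0 at 0.01 and 1, Myh3, at 0.05 (against 0.0233% and 1.18% of all genes). At an unadjusted p under 0.05 there were 2 higher (against 11.4% of all genes) and 3 lower (against 13.1%). DESeq2 called Myog and Myh3 at 0.01, against 3.55% of the 9616 genes with an adjusted p. Myog, the gene of the E-box factor myogenin, was at 13.8, 12.2 and 8.22 CPM in the mAktDKO mice and at 4.26, 7.51 and 4.68 CPM in the control mice. The log2 fold change was 1.06 (SE 0.25), and the adjusted p was 0.0642 in edgeR and 0.00349 in DESeq2. Runx1 had a log2 fold change of 0.60 (edgeR adjusted p = 0.131). Myh3, the embryonic myosin gene, was at 8.73 ± 1.62 against 21.5 ± 7.64 CPM (SD, n = 3 each), with an edgeR adjusted p of 0.0474. Dach2, which codes for a repressor of Myog, was at 2.39 ± 0.21 against 5.21 ± 2.09 CPM (SD, n = 3 each), with an edgeR adjusted p of 0.0849. Control mouse 4, at 2.80 CPM, lay near the mAktDKO mice (2.26 to 2.63 CPM). Control mice 2 and 3 were at 6.43 and 6.42 CPM, and DESeq2 gave Dach2 no adjusted p. Cdkn1a had a log2 fold change of -0.56 (edgeR adjusted p = 0.112). The list held genes on both sides of 0, and its median was -0.11. Its genes were not sorted by the direction in which each responds to denervation, so these values do not describe such a response.

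Markers of fibre types and of other cells in the muscle differed between the groups in part. All 15 fast fibre markers had a log2 fold change below 0. The groups were separated for 10 of them (66.7%), against 16.6% of all genes for lower levels. Of the slow fibre markers 7 of 8 were above 0 (sums 691 to 1327 against 616 to 894 CPM). The 6 adipocyte markers (153 to 239 against 129 to 160 CPM), the 6 tendon markers (1231 to 1774 against 943 to 1273 CPM) and the 7 tested leukocyte markers (9 listed, 127 to 156 against 87.8 to 137 CPM) were all above 0. Of the fibro-adipogenic markers 8 of 9 were above 0 (19228 to 22605 against 8280 to 19380 CPM), of the Schwann cell markers 9 of 12 and of the satellite cell markers 6 of 7 (46.8 to 56.0 against 49.8 to 56.2 CPM). Endothelial markers were above 0 in 6 of 9 cases (535 to 648 against 466 to 604 CPM), and mural and smooth muscle markers in 4 of 7 (622 to 733 against 569 to 645 CPM). Of the 11 motor neuron genes 2 could be tested, 1 above and 1 below 0, and the list summed to 3.28 to 5.51 CPM. EdgeR called 0 of these markers at 0.05, against 1.18% of all genes. An unadjusted p under 0.05 was seen in 8 fast fibre markers, all lower (against 13.1% of all genes), and 5 adipocyte markers, all higher (against 11.4%). Each other cell type had between 0 and 3 such markers. DESeq2 called 5 fast fibre, 2 tendon and 1 fibro-adipogenic marker at 0.01, against 3.55% of the 9616 genes with an adjusted p. Chrna1 and Chrnb1 were higher in the mAktDKO group, in which the fast fibre markers were lower. The part of cell composition in the values above was not tested.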

How the data were processed

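EDL RNA of 3 mAktDKO and 3 control floxed mice was depleted of rRNA and sequenced from stranded libraries with paired-end, 37 bp reads. Per the labels and the methods of the study, the authors mapped the reads to mm10 with STAR and estimated counts per gene with RSEM 1.3.1. The processing notes give STAR 2.6.1b, and the methods name another release. The deposited values are these estimated counts, not scaled between mice, and 3.36% to 4.09% of them per mouse are not whole.

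Here the counts were rounded, filtered with filterByExpr (minimum count 10), scaled by TMM and tested over 12892 genes with edgeR 4.0.16 (quasi-likelihood test, R 4.3.3), with Benjamini-Hochberg adjustment over all genes and a threshold of 0.01. Log2 CPM used a prior count of 2. Intervals are from the t distribution of that fit. The study tested with DESeq2, calling an adjusted p under 0.01 with a q value under 0.05. Here DESeq2 1.42.0 was the alternative, and its adjusted p covers 9616 genes. The scripts of both fits were tested on simulated counts. Coordinates and exon lengths are from GENCODE M21, whose build matches mm10. The 10 genes, the lists of other synapse, nicotinic, denervation and cell type genes and the tests were chosen with earlier results of these data known. All 10 genes are named. Of the synapse and denervation lists, the 5 with the smallest p and Ache, Colq, Utrn, Erbb3 and Myog are named, and Plec, Gabpa, Gabpb1 and Etv4 were added after their values were seen. The result of 1 gene of the synapse list is not reported here.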

Additional observations from a re-analysis of the deposited data

How the results depend on the processing

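No paired analysis was possible because numbers 2 to 4 head the control columns, whereas the labels number those samples 1 to 3. The labels and the methods of the study also state no pairing of mAktDKO with control mice, so the numbers need not mark pairs. None of the 10 genes passed the threshold under any scaling, filter or test, at an adjusted p under 0.05 in edgeR, or without any 1 mouse, except that Chrng was not tested with at least 10 counts required in every mouse and had no adjusted p in DESeq2, and 106 of 119 comparisons of a gene with an alternative kept their direction. Chrna1 (0.33 to 0.48 without 1 mouse, edgeR adjusted p 0.0840 to 0.284) and Chrnb1 (0.39 to 0.55, adjusted p 0.0514 to 0.257) were above 0 in all of these, as was Agrn (0.040 to 0.37). Dok7 (-0.46 to -0.26), Chrne (-0.37 to -0.053) and Rapsn (-0.16 to -0.017) were below 0 without any 1 mouse, with estimates of Agrn, Chrne and Rapsn near 0 at one end. The genes near 0 did not keep a side. With library totals, which moved the median of all genes to 0.16, the log2 fold changes were 0.14 for Chrng, 0.057 for Lrp4 and 0.049 for Rapsn, and relative to that median they were below 0 as with TMM. Musk was at -0.00072 with no filter and at -0.0016 with DESeq2. Without 1 mouse the range was -0.090 to 0.35 for Chrnd, -0.37 to 0.50 for Chrng, -0.12 to 0.16 for Musk and -0.18 to 0.060 for Lrp4. The median of the 10 genes was 0.14 with library totals, and -0.12 (without control mouse 4) to 0.11 (without control mouse 2) without 1 mouse. The difference in the log2 ratio of Chrng to Chrne was 0.040 with no offset, 0.087 with 2 counts added and -0.46 to 0.90 without 1 mouse. The value of 0.90 was reached without mAktDKO mouse 3, which had 2 counts of Chrng. The mAktDKO mice kept in that comparison both had higher ratios than all control mice, so the overlap of the groups rested on mAktDKO mouse 3.

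Of the other synapse genes, 4 passed with DESeq2 and 1 at an adjusted p under 0.05. Over all genes, 32 passed with no filter, 341 with DESeq2, 152 at an adjusted p under 0.05 and 0 to 8 without 1 mouse. The fits with 0 left out mAktDKO mouse 1, 2 or 3, where 2441, 1871 and 2794 genes respectively had an unadjusted edgeR p under 0.05. With 8, control mouse 2 was left out. The cause of these differences was not tested. Chrng, at 2 to 12 counts, is the gene that depth limits.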
